A study of Mus musculus with 48 samples.

Results

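The secretion of saliva fluid depends on a small set of receptors, calcium channels and ion transporters, and 9 of their genes are described here in irradiated mouse salivary gland organoids. The 9 genes were chosen by name: Chrm3, Itpr2, Itpr3, Ano1, Kcnn4, Cftr, Slc12a2, Atp1b1 and Pip. They are 9 of the 47643 genes counted, and the rule that names them sets no threshold on a measured value. These genes and the lists of other genes used below were nevertheless chosen with earlier results of these data known. A count of calls among them, set beside the share of all genes, is therefore a description and not an independent test.

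In the classical picture of fluid secretion, acetylcholine from parasympathetic nerves binds the muscarinic receptor M3 on secretory cells. The receptor acts through Gq and phospholipase C to make inositol trisphosphate, which opens calcium channels of the endoplasmic reticulum. Calcium then opens an apical chloride channel and a basolateral potassium channel, chloride is reloaded by a sodium-potassium-chloride cotransporter that runs on the sodium gradient set by the sodium pump, and water follows the salt. Dry mouth after radiotherapy of the head and neck is a failure of this secretion, and the muscarinic receptor is the target of drugs used to stimulate the remaining gland.

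The organoids, small epithelial structures grown from dispersed tissue, came from the submandibular glands of C57BL/6 mice aged 8 to 12 weeks. They were grown in Matrigel, a basement membrane gel, in a medium with EGF, FGF2, insulin, dexamethasone, the kinase inhibitor Y27632 and media conditioned with Wnt3a and R-spondin1, and every group shared this medium, controls included. On day 5 of culture they received photons or protons (in the plateau of the proton beam) at 4, 7 or 15 Gy, or no irradiation, and RNA was taken 2 or 6 days later. This gave 16 groups (2 radiation types, 2 days, 4 dose levels) of 3 libraries, each library from the organoids of 1 numbered mouse. The photon and proton irradiations took place on separate days with separate unirradiated controls, so that a level after protons cannot be set against a level after photons; only changes from the matching control were compared. The labels record no nerve supply and no added agonist.

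Libraries held 314409 to 4745719 gene counts, with a median of 2952939. The library of fewest counts, photon day 6, 4 Gy, mouse 3, stood apart in several members, and results that rest on it are given with and without it. Levels are CPM, counts scaled to a common library total, after TMM scaling over all 48 libraries. Reads come from transcript 3' ends, so that long transcripts give no more counts than short ones. Changes are log2 fold changes with their standard errors (SE) from the quasi-likelihood test of edgeR, p adjusted by Benjamini-Hochberg over every gene tested, and a gene is said to have risen or fallen where its adjusted p was under 0.05. Counts of members with an unadjusted p under 0.05 are given without the share of all genes under that cutoff. They are therefore not read as a result about the members.

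The labelled source, the submandibular gland, was checked against marker genes of its cell types. Most basal and luminal duct markers were abundant, and so were squamous markers. The 8 squamous markers summed to 860 to 16767 CPM, with a median of 2208 CPM for the keratin Krt6a. The summed level of 6 basal duct markers ran from 3650 to 18041 CPM, and Krt5, a basal keratin, had a median of 3584 CPM over the 48 libraries. The 7 luminal markers summed to 1644 to 5034 CPM, mainly from Krt7, Tfcp2l1 and Krt18 (medians 1348, 572 and 428 CPM). Of the luminal markers, Slc5a5 had 17 counts in all libraries together and Elf5 a median of 0.817 CPM. Markers of the granular ducts were scarce, at 0 to 5.38 CPM summed over 6 genes. Markers that define the acinar cells, the main fluid-secreting cells of the gland, were nearly absent: Bhlha15 had 15 counts, Lpo 10, Car6 7, Dcpp1 5, Smgc 3 and Muc19 1 in all 48 libraries together, although Aqp5, the apical water channel, had a median of 4.20 CPM and Amy1 1.56 CPM. Of 5 markers of the Cftr-rich ionocytes, 4 were also nearly absent, with 3 counts of Foxi1, 8 of Ascl3, 22 of Atp6v1b1 and 1 of Atp6v1g3 in all libraries. The fifth, the proton pump subunit Atp6v0d2, had 651 counts and reached 17.6 CPM in a photon day 6 library. In bulk RNA of this kind, fewer cells of a type and less RNA per cell cannot be told apart.

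The start regions of 4 of the 5 members that passed a test against control are shown, to compare those that rose (Chrm3, Kcnn4) with those that fell (Pip, Atp1b1). They are taken from RefSeq on GRCm38.p6, 250 bases before to 50 bases after the annotated start, 5' to 3' on the gene's strand. RefSeq entries were found for 8 members and used for those. Capitals mark matches, on either strand, to motifs that were searched: the gamma-activated site TTCNNNGAA, the AP-1 site TGANTCA, the TATA box TATAAA and the GC box GGGCGG; the interferon-stimulated response element and the cyclic AMP response element (TGACGTCA) had no match in any of the 8. The regions lie at chr13:10360754-10361053 on the minus strand (Chrm3), chr7:24370013-24370312 on the plus strand (Kcnn4), chr6:41847299-41847598 on the plus strand (Pip) and chr1:164458306-164458605 on the minus strand (Atp1b1).
Chrm3: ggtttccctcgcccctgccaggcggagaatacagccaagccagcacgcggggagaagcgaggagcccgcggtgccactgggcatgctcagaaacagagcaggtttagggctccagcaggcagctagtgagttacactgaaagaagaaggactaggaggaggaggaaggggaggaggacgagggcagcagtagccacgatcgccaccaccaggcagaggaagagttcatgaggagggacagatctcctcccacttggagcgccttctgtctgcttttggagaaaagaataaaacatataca
Kcnn4: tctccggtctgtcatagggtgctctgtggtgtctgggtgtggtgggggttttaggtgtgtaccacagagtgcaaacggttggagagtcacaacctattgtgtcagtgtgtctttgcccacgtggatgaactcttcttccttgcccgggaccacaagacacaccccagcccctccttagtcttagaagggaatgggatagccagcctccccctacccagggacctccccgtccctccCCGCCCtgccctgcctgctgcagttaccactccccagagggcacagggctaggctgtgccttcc
Pip: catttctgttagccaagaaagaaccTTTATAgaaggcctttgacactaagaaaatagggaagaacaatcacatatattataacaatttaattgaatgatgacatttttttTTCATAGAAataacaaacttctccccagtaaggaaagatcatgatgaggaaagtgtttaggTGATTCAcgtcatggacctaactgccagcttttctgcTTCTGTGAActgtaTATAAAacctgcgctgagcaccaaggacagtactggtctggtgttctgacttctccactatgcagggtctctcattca
Atp1b1: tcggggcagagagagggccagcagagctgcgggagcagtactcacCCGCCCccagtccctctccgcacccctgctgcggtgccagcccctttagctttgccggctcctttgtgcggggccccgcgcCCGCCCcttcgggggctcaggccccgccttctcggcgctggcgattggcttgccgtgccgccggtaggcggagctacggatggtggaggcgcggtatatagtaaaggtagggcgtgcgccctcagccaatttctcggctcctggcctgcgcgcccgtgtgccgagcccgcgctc

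The 4 start regions differed in composition. That of Pip had 38.0% G and C, below the median of 52.67% over the 32851 promoters of the table, and carried TATA boxes that began 225 and 28 bases before the start, gamma-activated sites that began 140 and 42 bases before it and an AP-1 site 79 bases before it. The share of all promoters with a match was 13.616% for the TATA box, 8.298% for the gamma-activated site and 7.808% for the AP-1 site. Atp1b1, at 71% G and C, held GC boxes 205 and 124 bases before its start, and Kcnn4, at 59.67%, held 1 that began 14 bases before its start, against 35.658% of all promoters with at least 1. The Chrm3 region, at 57.33%, held none of the motifs. The other start regions searched, those of Ano1, Cftr, Itpr2 and Itpr3, had 71.33 to 73.33% G and C and held 4, 6, 5 and 1 GC boxes. A match describes the letters and not a site in use.

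Across the members, the muscarinic receptor Chrm3, the potassium channel Kcnn4 and the cotransporter Slc12a2 were the ones that rose in some comparison with control. The sodium pump subunit Atp1b1 and the secreted protein Pip were the ones that fell in some. With all libraries, Slc12a2 and Pip passed only after protons, and no member passed after photons at day 6. After protons at day 6, 5 of 8 tested members passed at 15 Gy, 3 higher and 2 lower, when 24.2% of all genes tested passed, 11% higher and 13.2% lower. Pip, lower at 15 and 7 Gy, entered that fit through its controls alone, so that only a fall could be called. At 7 Gy, 4 of 8 passed, 3 higher and 1 lower (12.1% of all genes, 5.49% higher and 6.6% lower), and at 4 Gy 0 of 8 passed in edgeR and 0 in DESeq2 (1.56% of all genes), with an unadjusted p under 0.05 for 4. Over all genes 1184 rose and 1427 fell at 15 Gy and 594 and 713 at 7 Gy; with library size alone as the scaling these were 1947 and 925, and 1400 and 380, with the median of all genes moved to 0.14 and 0.19, and the same members passed in the same directions at both doses. After protons at day 2, 4 of 7 passed at 15 Gy (8.31% of all genes), 1 of 7 at 7 Gy (2.94%), and 0 of 7 at 4 Gy in edgeR (1.05%), where DESeq2 called 1 and 4 had an unadjusted p under 0.05.

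Photons gave fewer calls among the members. At day 2, 2 of 8 passed at 15 Gy (4.96% of all genes tested), 1 of 8 at 7 Gy (2.7%), and 0 of 8 at 4 Gy (0.661%), where DESeq2 called 1 and 4 had an unadjusted p under 0.05. At day 6, 0 of 9 passed at any dose in edgeR or DESeq2, against 1.23, 2.61 and 5.29% of all genes at 4, 7 and 15 Gy, and unadjusted p-values under 0.05 numbered 4, 3 and 3. Without the 4 Gy library of fewest counts, 3 of 9 passed at day 6, 15 Gy (Chrm3, Pip and Itpr2) and 0 at the lower doses. The share of all genes that passed in that fit is not given, so this count is not shown to be particular to the members. The median log2 change over the members tested at 15 Gy was 0.11 and -0.04 for photons at days 2 and 6 and 0.39 and 0.28 for protons at days 2 and 6, against medians of -0.03, 0.00, 0.00 and -0.02 over all genes.

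**Figure D1:**
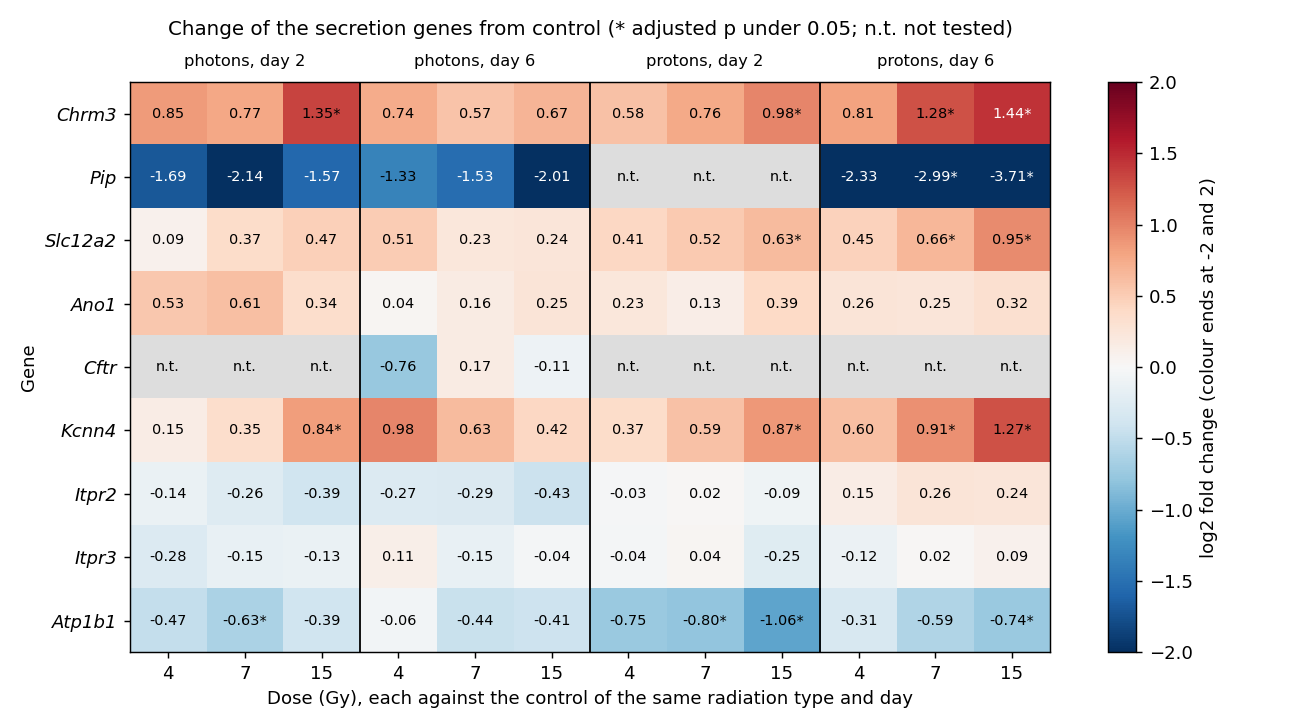
Log2 fold change of each of the 9 genes (rows) at each dose in Gy (columns) against the control of the same radiation type and day, 3 libraries a group. Asterisks mark adjusted p under 0.05, n.t. marks genes with too few counts to test, and the colour scale ends at -2 and 2. Chrm3 is above 0 in all 12 comparisons and passes in 4, and Atp1b1 is below 0 in all 12 and passes in 4.

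Chrm3 encodes the M3 receptor itself, the entry point of the pathway. After protons at day 6 its level was 19.4, 9.54 and 16.0 CPM in the control organoids of mice 1, 2 and 3, 30.9, 24.1 and 24.8 CPM at 4 Gy, 31.0, 42.8 and 35.2 CPM at 7 Gy, and 36.2, 36.6 and 50.7 CPM at 15 Gy. All irradiated libraries lay above all controls. The mean went from 15.0 ± 4.98 to 41.2 ± 8.25 CPM at 15 Gy (SD, n = 3), a log2 change of 1.44 ± 0.24 (SE; adjusted p = 0.000296; 3 of 3 mice higher). At 7 Gy the change was 1.28 ± 0.24 (adjusted p = 0.00154), and at 4 Gy it was 0.81 ± 0.24 (adjusted p = 0.14).

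At day 2 Chrm3 was also higher at 15 Gy with both radiation types. Photons took it from 15.9, 14.2 and 20.4 CPM in the controls to 46.9, 42.3 and 39.5 CPM, with no overlap. This was a log2 change of 1.35 ± 0.23 (adjusted p = 0.00339). Protons took it from 10.4, 12.2 and 7.31 CPM to 19.5, 23.9 and 16.3 CPM, a change of 0.98 ± 0.24 (adjusted p = 0.0166), again without overlap. That proton call was lost without control mouse 1 (adjusted p = 0.0562), control mouse 3 (0.0923) or 15 Gy mouse 2 (0.108).

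At day 6 after photons Chrm3 stood at 23.6, 28.6 and 19.7 CPM in the controls and at 41.7, 38.9 and 31.3 CPM at 15 Gy. The groups did not overlap, but the change of 0.67 ± 0.21 did not pass (adjusted p = 0.0765); it passed without the 4 Gy library of fewest counts (adjusted p = 0.0361) and when only the groups compared were fitted (0.0347). The level of 59.7 CPM in that library rests on 17 counts, where the other 2 libraries of its group had 30.2 and 43.2 CPM. The proton effect at day 6, 15 Gy exceeded the photon effect by 0.82 ± 0.34 on the log2 scale, which did not pass (adjusted p = 0.154).

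**Figure D2:**
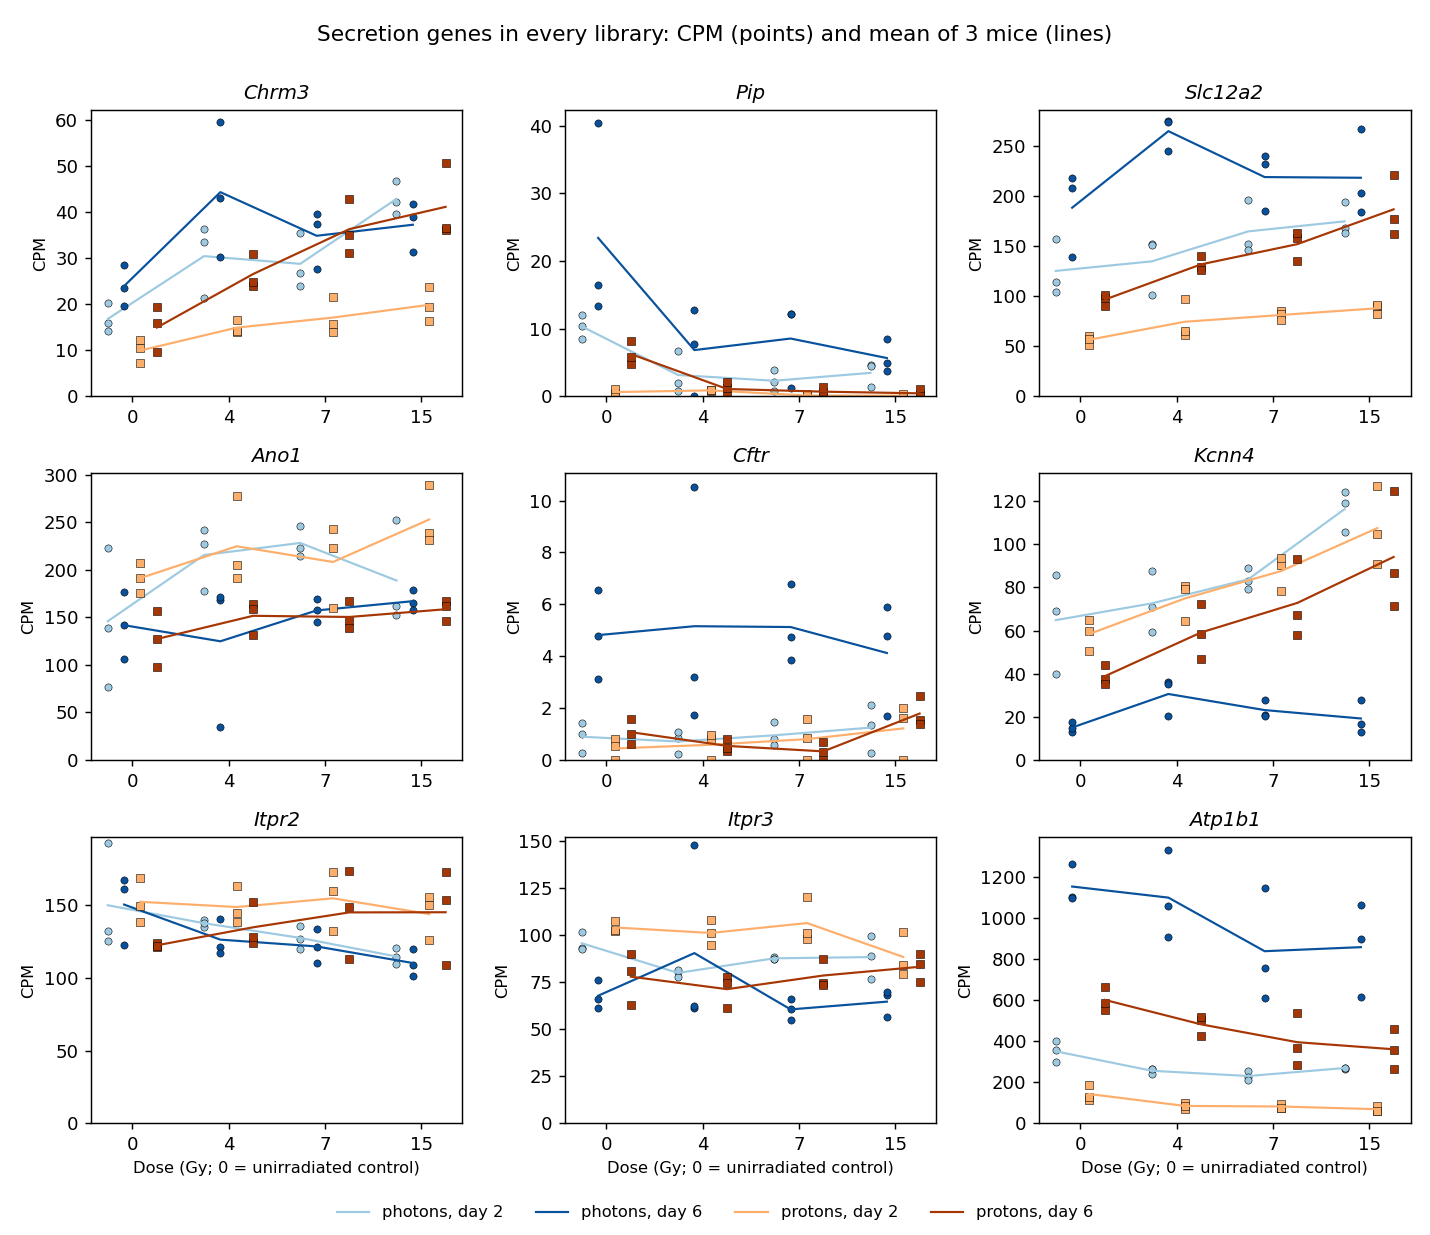
Level of each of the 9 genes in CPM (vertical axis, from 0) in every library, by dose in Gy (horizontal axis, doses evenly spaced), with the mean of 3 mice as a line for each radiation type and day. In the proton day 6 series the control libraries of Chrm3 reach 19.4 CPM at most and those at 15 Gy start at 36.2 CPM; the photon day 6, 4 Gy library at 35.1 CPM of Ano1 is the library of fewest counts.

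Itpr2 and Itpr3 encode the type 2 and type 3 inositol trisphosphate receptors, the calcium release channels of secretory epithelia downstream of Chrm3. Neither passed in any of the 12 dose comparisons. Itpr2 had 121, 124 and 122 CPM in the proton day 6 controls and 109, 173 and 154 CPM at 15 Gy, so that the 15 Gy libraries lay on both sides of the controls (log2 change 0.24 ± 0.17, adjusted p = 0.331). With photons at day 6 it had 161, 168 and 123 CPM in the controls and 120, 109 and 102 CPM at 15 Gy, without overlap (-0.43 ± 0.14, adjusted p = 0.0967). That value passed without the control of mouse 3 (adjusted p = 0.0258) and without the library of fewest counts (0.037).

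The Itpr2 changes at day 6 had opposite signs for the radiation types, and their difference at 15 Gy, 0.72 ± 0.24, did not pass (adjusted p = 0.0743). It passed with library size alone as the scaling (adjusted p = 0.0443), without photon control mouse 3 (0.0327), the photon library of fewest counts (0.0475) or proton 15 Gy mouse 1 (0.0139). Itpr3 stayed between 55 and 120 CPM in 47 of the 48 libraries and was at 147 CPM in the library of fewest counts. Its changes at 15 Gy ran from -0.25 ± 0.13 (protons, day 2, adjusted p = 0.295) to 0.09 ± 0.15 (protons, day 6, adjusted p = 0.708). The 15 Gy libraries of Itpr3 overlapped their controls with photons on both days and with protons at day 6.

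Ano1 encodes TMEM16A, the calcium-activated chloride channel through which chloride leaves the cell at the apical side. It passed in none of the 12 dose comparisons. At day 6 after protons it had 97.8, 127 and 157 CPM in the controls and 167, 162 and 146 CPM at 15 Gy, which overlap (0.32 ± 0.16, adjusted p = 0.154); without control mouse 3 the adjusted p was 0.0445. At day 2 after protons it had 175, 191 and 207 CPM in the controls and 238, 289 and 231 CPM at 15 Gy. Those groups did not overlap, and the change of 0.39 ± 0.17 did not pass (adjusted p = 0.172) unless only the groups compared were fitted (0.021).

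Ano1 varied widely between mice in the photon series. The day 2 controls had 222, 138 and 76.6 CPM, and the 4 Gy libraries of day 6 had 168 and 171 CPM and, in the library of fewest counts, 35.1 CPM from 10 counts. Against those day 2 controls the change at 7 Gy was 0.61 ± 0.29 (adjusted p = 0.294), and 1.04 without control mouse 1 (adjusted p = 0.0344). The sign of the day 6, 4 Gy change, 0.04 ± 0.28, turned with the tool (-0.07 in DESeq2). No photon dose passed with all libraries, so no direction is given for Ano1 after photons. Its day 2 changes stayed above 0 with any library left out (0.23 to 0.96, 0.31 to 1.04 and 0.04 to 0.77 at 4, 7 and 15 Gy). Mouse 1 nonetheless had a log2 ratio to its own control of -0.457 at day 2, 15 Gy.

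Kcnn4 encodes the intermediate-conductance calcium-activated potassium channel, which keeps the membrane voltage that drives chloride out. With protons at day 6 it had 43.8, 37.6 and 35.1 CPM in the controls, 72.3, 58.4 and 46.6 CPM at 4 Gy, 67.3, 93.2 and 57.9 CPM at 7 Gy, and 71.2, 86.6 and 125 CPM at 15 Gy. Every irradiated library exceeded every control. The log2 change was 1.27 ± 0.23 at 15 Gy (adjusted p = 0.000754) and 0.91 ± 0.23 at 7 Gy (adjusted p = 0.0157). The 7 Gy call was lost without control mouse 2 (adjusted p = 0.0676), control mouse 3 (0.0699) or 7 Gy mouse 2 (0.0966). At 4 Gy the change was 0.60 ± 0.24 (adjusted p = 0.296).

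At day 2 Kcnn4 rose at 15 Gy with both radiation types. Protons took it from 50.5, 59.6 and 64.7 CPM to 90.7, 105 and 127 CPM (0.87 ± 0.16, adjusted p = 0.00179). Photons took it from 68.9, 40 and 85.5 CPM to 119, 124 and 106 CPM (0.84 ± 0.22, adjusted p = 0.0423). Neither pair of groups overlapped. The photon call was lost when any of 9 of the 12 libraries was left out (adjusted p from 0.0557 to 0.146): controls of mice 1 and 2, 4 Gy mouse 3, and all 3 mice at 7 and at 15 Gy. It was also lost when only the groups compared were fitted (0.167). With protons at 7 Gy the change of 0.59 ± 0.16 missed the threshold (adjusted p = 0.0608) and passed with the mouse as a block (0.0343), or without 4 Gy mouse 2 (0.0434).

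At day 6 after photons Kcnn4 was at 12.8, 14.8 and 17.5 CPM in the controls, below the day 2 controls of the same series. It had 20.4, 36.2 and 35.1 CPM at 4 Gy, 28.0, 21.0 and 20.4 CPM at 7 Gy and 16.8, 27.8 and 13.1 CPM at 15 Gy. The 4 and 7 Gy libraries lay above the controls and those at 15 Gy overlapped them, and no dose passed (0.98 ± 0.29, 0.63 ± 0.28 and 0.42 ± 0.29, adjusted p = 0.195, 0.393 and 0.502). The difference between the proton and photon effects at 15 Gy, 0.90 ± 0.40, did not pass (adjusted p = 0.182).

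Cftr encodes the cyclic AMP-gated chloride channel that is mutated in cystic fibrosis, in salivary glands a channel of duct cells. It was the scarcest member, with 280 counts in all 48 libraries. Among the 4 dose series only photons at day 6 held enough counts to test it. There it had 15, 11 and 24 counts in the controls (4.81 ± 1.73 CPM) and 5, 25 and 23 at 15 Gy (4.12 ± 2.19 CPM), groups that overlap (-0.11 ± 0.44, adjusted p = 0.944). The fits of 24 libraries that include these libraries also tested Cftr. With protons at day 6 there were 2, 1 and 3 counts in the controls and 5, 7 and 4 at 15 Gy. Their ratio per library total was 1.812 with a 95% exact interval of 0.674 to 5.654, which covers counting error only and includes 1. Against the 2, 1 and 2 counts at 4 Gy the ratio was 3.489, with an interval of 1.221 to 12.178 that lies above 1. Of the 13 such ratios computed for Cftr it was the 1 whose interval did not include 1, and it does not cover the spread between mice. The other groups held 3 to 11 counts each in their 3 libraries, and 25 to 63 in the photon day 6 groups.

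Slc12a2 encodes NKCC1, the basolateral cotransporter that loads the cell with chloride. In the proton series at day 6 it had 98.3, 101 and 90.5 CPM in the controls, 129, 126 and 140 CPM at 4 Gy, 135, 158 and 163 CPM at 7 Gy, and 177, 162 and 220 CPM at 15 Gy. The controls lay below all irradiated libraries, and the 4 Gy libraries also lay below those at 15 Gy. The log2 change was 0.95 ± 0.14 at 15 Gy (adjusted p = 0.000103), 0.66 ± 0.14 at 7 Gy (adjusted p = 0.00386) and 0.45 ± 0.14 at 4 Gy (adjusted p = 0.143). The 4 Gy value passed with library size alone as the scaling (0.57, adjusted p = 0.0471) and when only the groups compared were fitted (0.45, adjusted p = 0.04).

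Slc12a2 was the 1 member of 8 that passed between 15 and 4 Gy in that series, by 0.50 ± 0.13 (adjusted p = 0.0332), when 6.7% of all genes did. The call was lost without any 4 Gy mouse (adjusted p = 0.101, 0.122 and 0.0718), without 15 Gy mouse 3 (0.132) and when only the groups compared were fitted (0.0892). Chrm3 (0.63 ± 0.21, adjusted p = 0.0736) and Kcnn4 (0.68 ± 0.22, adjusted p = 0.0665) missed the threshold; both passed without 15 Gy mouse 1 (0.036 and 0.0133), and Kcnn4 also in DESeq2 (0.045). In the other series 0 members passed between 15 and 4 Gy in edgeR or DESeq2, when 0.263% (photons, day 2), 0.141% (photons, day 6) and 0.123% (protons, day 2) of all genes did. Unadjusted p-values under 0.05 numbered 2, 0 and 1 there.

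At day 2 after protons Slc12a2 went from 51.7, 60.5 and 56.9 CPM to 81.9, 90.4 and 91.3 CPM at 15 Gy, without overlap. The change of 0.63 ± 0.16 (adjusted p = 0.0214) was lost without control mouse 1 (adjusted p = 0.103), control mouse 3 (0.0723), 15 Gy mouse 2 (0.0865) or 15 Gy mouse 3 (0.0712). At 7 Gy the value of 0.52 ± 0.17 (adjusted p = 0.114) passed without 4 Gy mouse 2 (0.0275). With photons no dose passed on either day. The photon controls had 114, 104 and 157 CPM at day 2 and 208, 218 and 139 CPM at day 6, and the 15 Gy libraries had 167, 163 and 193 CPM and 203, 267 and 184 CPM.

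The photon changes of Slc12a2 at 15 Gy were 0.47 ± 0.19 at day 2 (adjusted p = 0.177; 0.0295 without control mouse 3) and 0.24 ± 0.19 at day 6 (adjusted p = 0.563). The proton effect at day 6, 15 Gy exceeded the photon effect by 0.76 ± 0.24, just short of the threshold (adjusted p = 0.0624). It passed with the mouse as a block (0.0467), with library size alone (0.045) and without photon control mouse 3 (0.0153), the photon library of fewest counts (0.0404), photon 15 Gy mouse 2 (0.0372) or proton 15 Gy mouse 1 (0.0454).

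Atp1b1 encodes the beta-1 subunit of the sodium pump, the Na,K-ATPase, which keeps the sodium gradient that drives Slc12a2. Its 3' end overlaps Nme7 on the opposite strand, with 2712 counts for Nme7 in all 48 libraries; the strand setting of the counting is not given in the sources used here. After protons at day 2 Atp1b1 had 116, 187 and 128 CPM in the controls, 69, 101 and 86.6 CPM at 4 Gy, 76.4, 94.7 and 76.6 CPM at 7 Gy, and 61.6, 85.4 and 61.2 CPM at 15 Gy. No irradiated library reached a control. The log2 change was -1.06 ± 0.19 at 15 Gy (adjusted p = 0.0019) and -0.80 ± 0.20 at 7 Gy (adjusted p = 0.0346).

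The 7 Gy call of Atp1b1 was lost without control mouse 2 (adjusted p = 0.211), control mouse 3 (0.0613), 7 Gy mouse 1 (0.118) or 7 Gy mouse 3 (0.101). At 4 Gy the change of -0.75 ± 0.19 missed the threshold (adjusted p = 0.074) and passed with the mouse as a block (0.00275), in DESeq2 (0.0292) and without 4 Gy mouse 2 (0.0419) or 7 Gy mouse 2 (0.0455). Mouse 2 was the highest at every dose of that series, controls included.

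At day 6 after protons Atp1b1 had 665, 553 and 583 CPM in the controls and 267, 461 and 355 CPM at 15 Gy, without overlap. It fell by 0.74 on the log2 scale (-0.74 ± 0.20, adjusted p = 0.0119), and the call was lost without control mouse 1 (adjusted p = 0.0569). At 7 Gy, with 367, 282 and 535 CPM, the change was -0.59 ± 0.20 (adjusted p = 0.0614); it passed without 7 Gy mouse 3 (0.00714), 15 Gy mouse 1 (0.0242) or 15 Gy mouse 2 (0.0422), and when only the groups compared were fitted (0.0291). With photons at day 2 it had 355, 299 and 399 CPM in the controls and 255, 227 and 210 CPM at 7 Gy. The 7 Gy change of -0.63 ± 0.13 (adjusted p = 0.0156) was lost without 7 Gy mouse 2 (0.0777), without 7 Gy mouse 3 (0.0889) and when only the groups compared were fitted (0.162). There was no order by dose: the libraries had 263, 239.9 and 266 CPM at 4 Gy (-0.47 ± 0.13, adjusted p = 0.172) and 266, 272 and 271 CPM at 15 Gy (-0.39 ± 0.13, adjusted p = 0.0927), all below the controls, and both doses passed in DESeq2 (0.0315 and 0.0427). At day 6 after photons the values at 15 Gy were 897, 615 and 1060 CPM against 1100, 1259 and 1096 CPM in the controls (-0.41 ± 0.23, adjusted p = 0.409).

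Pip encodes prolactin-induced protein, a product secreted into saliva, tears and other gland fluids, and stands at the output of the pathway. At day 6 after protons it had 16, 8 and 11 counts in the controls (8.15, 4.77 and 5.86 CPM), 3, 0 and 9 at 4 Gy, 2, 0 and 6 at 7 Gy, and 1, 3 and 0 at 15 Gy. The controls exceeded all irradiated libraries in CPM. Pip fell by 3.71 on the log2 scale at 15 Gy (-3.71 ± 0.79, adjusted p = 0.00251) and by 2.99 at 7 Gy (-2.99 ± 0.69, adjusted p = 0.00851), values that rest on 4 and 8 counts in the irradiated groups. Only the controls held enough counts for the low-count filter, so that this fit could call Pip lower but not higher. At 4 Gy the change was -2.33 ± 0.65 (adjusted p = 0.0966; 0.0329 when only the groups compared were fitted).

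In the photon series Pip varied between the control mice of day 6. The day 6 controls had 40.3, 16.5 and 13.4 CPM, and the 15 Gy libraries had 3.70, 8.42 and 4.88 CPM, without overlap. The change of -2.01 ± 0.57 missed the threshold (adjusted p = 0.0564) and passed with the mouse as a block (0.0196), when only the groups compared were fitted (0.0185), and without control mouse 3 (0.0298), 4 Gy mouse 3 (0.0332) or 7 Gy mouse 3 (0.0144). At day 2 after photons the controls had 12.1, 8.50 and 10.4 CPM and the 7 Gy libraries 3.89, 2.18 and 0.857 CPM, a change of -2.14 ± 0.59 (adjusted p = 0.0772; 0.0295 in DESeq2; 0.0441 and 0.036 without 4 Gy mouse 2 or mouse 3). At day 2 after protons the 4 dose groups held only 4, 7, 1 and 1 counts of Pip, too few to test. In the 9 dose groups in which Pip could be tested, every irradiated library was below every control of its series and day. For protons at day 6 this order is tied to the filter, which Pip met through its controls alone.

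**Figure D3:**
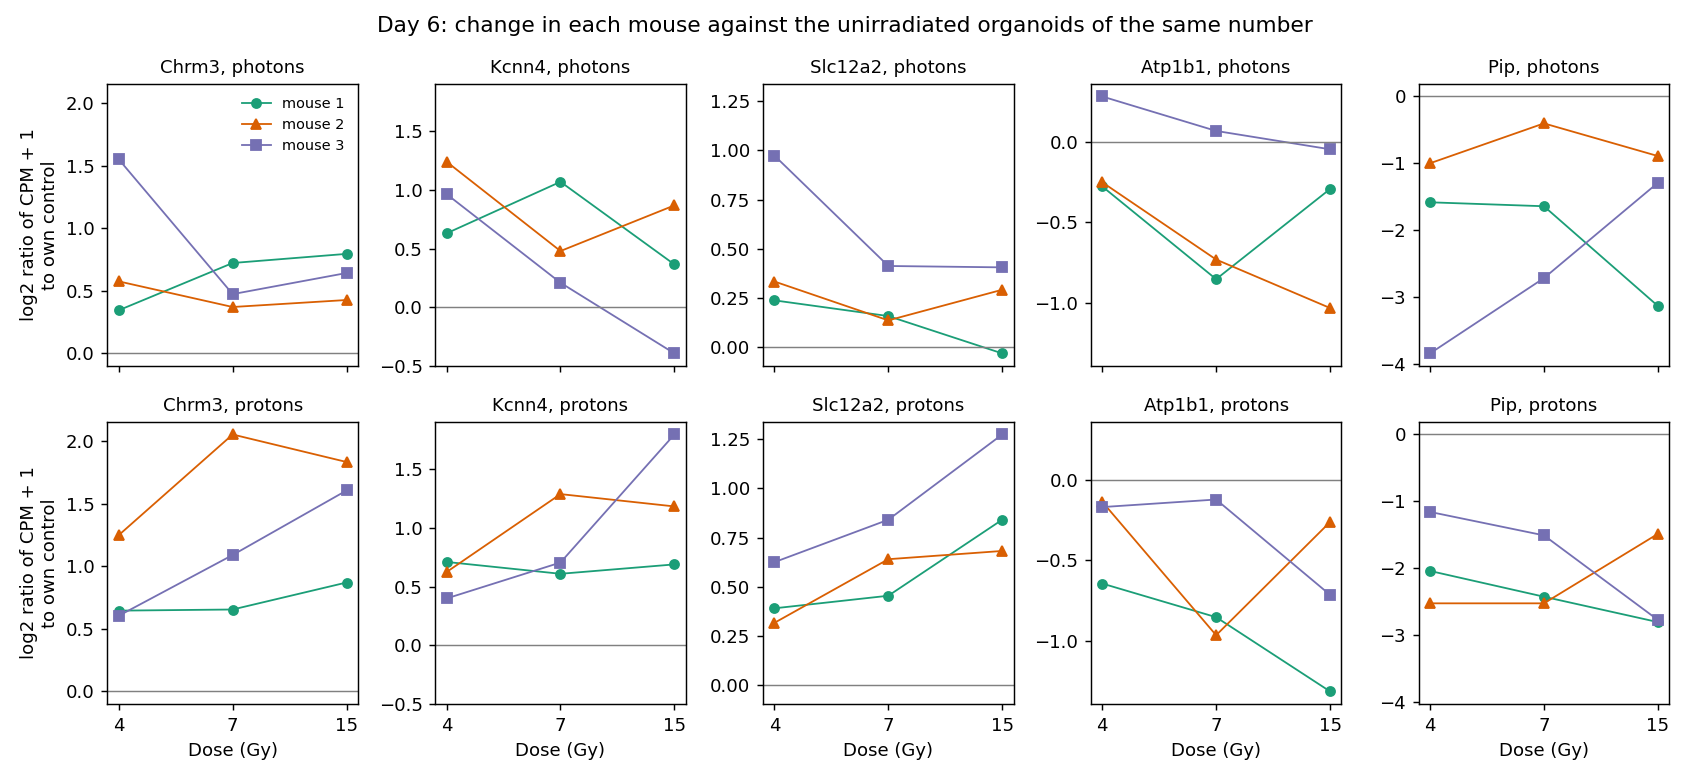
Change of 5 members at day 6 in each mouse, as the log2 ratio of CPM + 1 to the unirradiated organoids of the same number (vertical axis, shared by the photon and proton panels of a gene), by dose in Gy (horizontal axis, doses evenly spaced). With protons Chrm3, Kcnn4 and Slc12a2 are above 0 and Atp1b1 and Pip below 0 in all 3 mice at every dose. With photons mouse 3 is above 0 for Atp1b1 at 4 and 7 Gy. At 15 Gy of photons mouse 3 is below 0 for Kcnn4 (-0.393) and mouse 1 for Slc12a2 (-0.033).

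Members also differed between unirradiated organoids of the 2 days. Between the unirradiated organoids of day 2 and day 6, 5 of 8 tested members passed in the proton series (17.4% of all genes) and 3 of 9 in the photon series (14.7%). These counts include Pip (protons) and Cftr (photons), which entered the fits through day 6 libraries alone. Atp1b1 was higher at day 6 in both, by 2.05 ± 0.22 (protons, adjusted p = 1.18e-07) and 1.68 ± 0.20 (photons, adjusted p = 4.58e-06). Kcnn4 was lower at day 6 in the photon series, 15.0 ± 2.35 against 64.8 ± 23.0 CPM (-2.13 ± 0.28, adjusted p = 1.06e-05), while its proton value of -0.59 ± 0.22 missed the threshold (adjusted p = 0.0647). That proton value passed when only the groups compared were fitted (0.0114), and without 7 Gy mouse 2 (0.0489), 15 Gy mouse 1 (0.045) or 15 Gy mouse 3 (0.0386) of day 6.

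In the proton series Pip was higher at day 6 by 3.26 ± 0.73 (adjusted p = 0.00217) and Slc12a2 by 0.76 ± 0.16 (adjusted p = 0.000925). Pip had 4 counts in the day 2 controls and met the filter through day 6 libraries alone, so that only a rise could be called. Ano1 was lower in the proton series by -0.60 ± 0.17 (adjusted p = 0.0133), a call lost without day 2 control mouse 3 (0.0573) or day 6 control mouse 1 (0.1). Itpr3 was lower by -0.43 ± 0.14 (adjusted p = 0.0376), a call lost without any of the 3 day 2 controls (0.0765, 0.101 and 0.0685) or day 6 control mouse 1 or 2 (0.0581 and 0.215). In the photon series Cftr was higher at day 6, 4.81 ± 1.73 against 0.895 ± 0.577 CPM (2.42 ± 0.65, adjusted p = 0.0135), a call lost without day 2 control mouse 1 (0.0814) or day 6 control mouse 3 (0.0661). Cftr had 7 counts in the day 2 controls and met the filter through day 6 libraries alone, so that only a rise could be called. Slc12a2 (0.56 ± 0.20, adjusted p = 0.059) and Itpr3 (-0.53 ± 0.19, adjusted p = 0.0561) missed the threshold in the photon series, and both passed without the library of fewest counts (0.043 and 0.00389).

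The test of a difference in the 15 Gy effect between days called 0 members of 9 in the photon series and 0 of 8 in the proton series in edgeR and in DESeq2, when 0.104 and 2.64% of all genes passed; 1 and 0 had an unadjusted p under 0.05. The test of the proton against the photon effect called 0 members at all 3 doses and both days in both tools. Of all genes 4.41% passed that test at day 6, 15 Gy and 0% in the other 5 comparisons. At day 6, 15 Gy 4 of 9 members had an unadjusted p under 0.05, and the share of all genes under that cutoff is not given. A member called after protons and not after photons is therefore not shown to differ between the radiation types.

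The other genes of the pathway were read in 7 lists of 134 genes, of which 132 were in the counts and 63 to 78 were tested per series. In the list of the sodium pump and sodium uptake, 6 of 9 tested genes fell and 0 rose after protons at day 6, 15 Gy, when 13.2% of all genes fell, with a median log2 change of -0.997 against -0.02 over all genes, and the count was 6 with each library left out. At 7 Gy 5 of 9 fell (4 or 5 with 1 library left out), when 6.6% of all genes fell. At day 2 after protons, 15 Gy, 4 of 8 fell, a count that went down to 1 when a library was left out, when 8.31% of all genes passed in either direction. With photons at 15 Gy, 2 of 9 fell at day 2 (1 to 4 with 1 library left out) and 0 of 10 at day 6 (0 to 5), where the median was -0.51. Of all genes 4.96 and 5.29% passed in either direction there.

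Subunits and regulators of the pump were among the genes of this list that fell. Fxyd3, a small membrane protein that binds the pump, went from 493, 465 and 490 CPM to 198, 256 and 228 CPM after protons at day 6, 15 Gy (-1.09 ± 0.13, adjusted p = 9.78e-06). Atp1b3, another beta subunit, fell after photons at day 2, 15 Gy, from 591, 561 and 575 CPM to 317, 333 and 359 CPM (-0.79 ± 0.11, adjusted p = 0.000764), and after protons at day 6, 15 Gy (-0.997 ± 0.14, adjusted p = 7.18e-05). Fxyd4 (-3.13 ± 0.56) and, named after their values were seen, Fxyd2 (-3.38 ± 0.44), both pump regulators, and Sgk1 (-0.65 ± 0.11), a kinase that stimulates sodium uptake, fell there too.

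The other lists were read after protons at day 6, 15 Gy, against the 11% of all genes that rose there and the 13.2% that fell. In chloride and bicarbonate transport 1 of 17 tested genes rose and 2 fell, a share below that of all genes, with a list median of -0.10; with library size alone 3 rose and 2 fell. The gene that rose was Wnk1, a kinase upstream of the kinases that activate the Slc12a2 cotransporter, from 216, 219 and 180 CPM to 393, 440 and 481 CPM (1.09 ± 0.12, adjusted p = 6.45e-06). Car12, a carbonic anhydrase of the cell surface, fell from 345, 397 and 364 CPM to 63, 121 and 54.8 CPM (-2.22 ± 0.30, adjusted p = 4.76e-05), and had fallen at day 2 by less (-0.75 ± 0.13, adjusted p = 0.00144). Slc4a7, a sodium bicarbonate cotransporter, was lower at 15 Gy in all 4 series: by -0.68 ± 0.12 and -0.81 ± 0.12 after photons at days 2 and 6 and by -0.90 ± 0.12 and -0.59 ± 0.15 after protons (adjusted p = 0.00538, 0.000882, 0.000126 and 0.00743).

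Among receptors and Gq signalling, 2 of 12 tested genes rose and 1 fell after protons at day 6, 15 Gy, a share near the 24.2% of all genes that passed. Vipr1, a receptor of the secretory nerve peptide VIP, fell from 21.4, 14.9 and 17.0 CPM to 7.61, 4.22 and 4.48 CPM (-1.69 ± 0.29, adjusted p = 0.000434). Plcb4, a phospholipase C of the Gq pathway, rose from 9.68, 10.7 and 11.2 CPM to 18.9, 24.3 and 23.8 CPM (1.08 ± 0.23, adjusted p = 0.00212). Of 11 calcium store and entry genes 3 rose and 2 fell, counts that became 3 and 0 with library size alone, 1 and 0 with only the groups compared, and 1 to 3 and 0 to 2 with 1 library left out. Among them was Atp2b1, a calcium pump of the plasma membrane, which rose by 0.53 ± 0.11 (adjusted p = 0.00248). Potassium channels other than Kcnn4 gave 0 higher and 2 lower of 4 tested, but 1 and 0 under library size scaling, with 0 to 2 lower when 1 library was left out, so that no direction can be given. Regulated exocytosis gave 0 higher and 2 lower of 10 tested, and 0 and 0 with library size alone (1 to 3 lower with 1 library left out).

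Of the other secreted products of saliva, most were below the counts needed for a test: 7 of 28 in the files were tested after protons at day 6, where 1 rose and 0 fell at 15 Gy. The one that rose was Ltf, the iron-binding protein lactoferrin, from 376, 278 and 293 CPM to 508, 490 and 517 CPM (0.68 ± 0.13, adjusted p = 0.00125). It also rose after protons at day 2 (2.49 ± 0.47, adjusted p = 0.00248). Wfdc18, a small secreted protein with a whey acidic protein domain, fell after photons at day 6, 15 Gy, from 652, 408 and 393 CPM to 72.6, 106 and 165 CPM (-2.06 ± 0.27, adjusted p = 0.000343). At 15 Gy 36 calls of 24 genes met the rule for named pathway genes. Of these calls 16 held with each library left out, and 15 of the 16 also held in every other alternative; the exception was Slc4a7 after photons at day 2, lost when only the groups compared were fitted. The named genes given above with their values per mouse were selected from those 16 with the values in view.

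**Figure D4:**
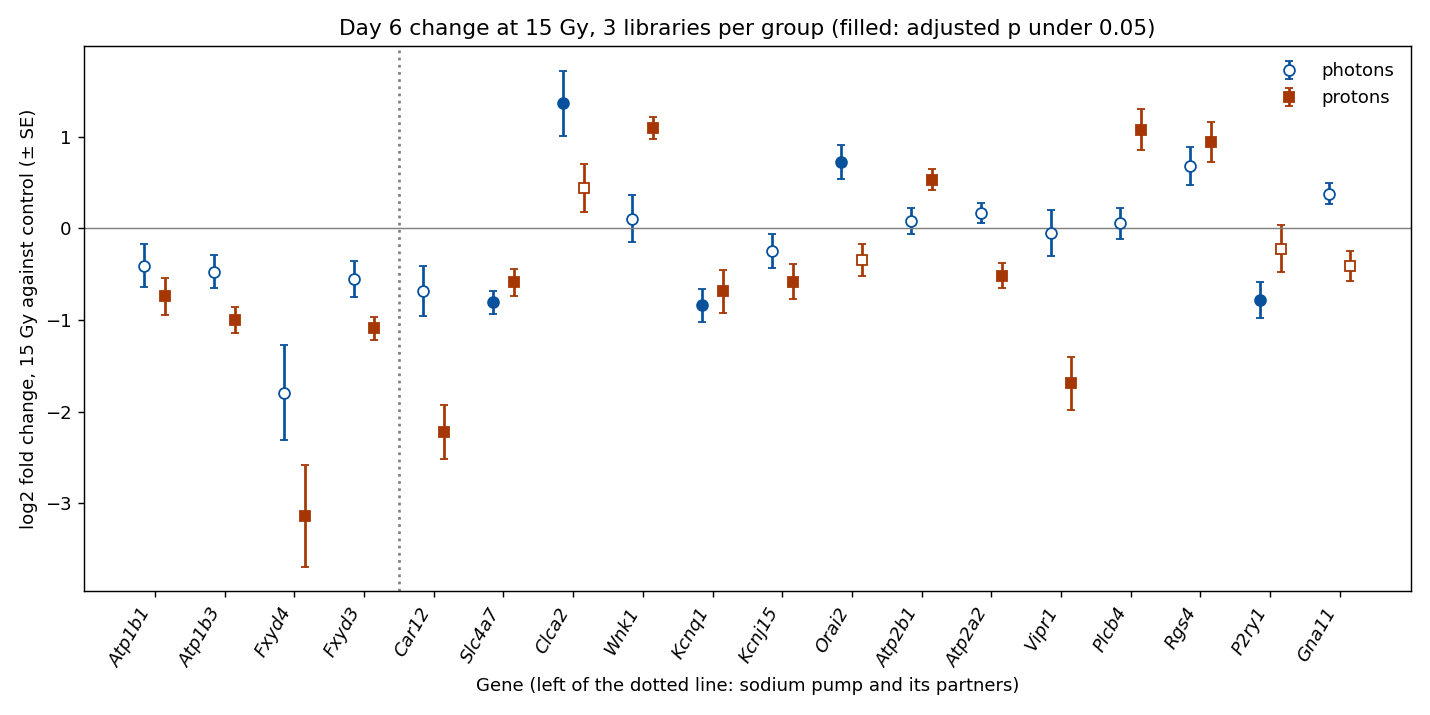
Log2 fold change ± SE (vertical axis) at 15 Gy against control at day 6 for Atp1b1 and other pathway genes of the pump, transport, calcium and receptor lists (horizontal axis), with photons as circles and protons as squares, 3 libraries a group; filled symbols have an adjusted p under 0.05. Of the 4 pump genes left of the dotted line, all 4 are filled for protons and 0 for photons, when 24.2 and 5.29% of all genes passed. Those other than Atp1b1 were drawn from genes called at 15 Gy in any series, so the filled count partly follows that choice. None of the 4 passed the test of the proton against the photon effect.

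Markers of cell state moved with these groups. Under protons at day 6 the summed level of 8 squamous markers was 2362 to 3927 CPM in the controls and 1212 to 1538 CPM at 15 Gy, and all 8 fell. The summed basal duct markers were 7278 to 8479 CPM and 3650 to 5080 CPM, with 4 of 6 lower. The summed luminal duct markers were 2643 to 2989 CPM and 2924 to 3681 CPM, with 2 of 5 tested higher (Krt18 and Krt8) and 2 lower (Krt19 and Tfcp2l1). The acinar sum was 10.1 to 14.3 CPM and 0.913 to 5.63 CPM, with Aqp5, the 1 acinar marker tested, lower (-2.05 ± 0.54, adjusted p = 0.0107). The part of these shifts in the changes of Chrm3, Kcnn4, Slc12a2, Atp1b1 and Pip was not tested.

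After photons at day 6, 15 Gy, squamous markers fell in 7 of 8 (2142 to 2462 CPM in the controls, 893 to 1120 CPM at 15 Gy) and basal markers in 2 of 6, with 0 of 5 luminal markers called. At day 2, 15 Gy, squamous markers were higher in 3 of 8 and lower in 0 after protons and lower in 1 of 8 after photons. Aqp5 also fell after photons at day 6 (-2.05 ± 0.45, adjusted p = 0.0132) and after protons at day 2 (-2.34 ± 0.40, adjusted p = 0.00106), 15 Gy. It was the 1 called of 2 acinar markers tested in that photon comparison, whose median log2 change was -0.873, and the 1 tested in that proton comparison. Fibroblast markers summed to at most 3.41 CPM and endothelial markers to at most 2.45 CPM in every library.

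Chrm3, Slc12a2 and Kcnn4 varied together: over the 48 libraries, with log2(CPM + 1) centred within each radiation type and day, Pearson's r was 0.82 between Chrm3 and Slc12a2, 0.81 between Chrm3 and Kcnn4, and 0.81 between Slc12a2 and Kcnn4. Doses are part of that variation, and the libraries of a mouse share their source, so these values describe the set and carry no p. Of all genes with at least 5 CPM, those most like Chrm3 were Ddx24 (r = 0.90), Exoc4 (0.90) and Vcan (0.88). Ddx24 was also nearest to Slc12a2 (0.88), before Dlg5 (0.85) and Peak1 (0.85), and stood behind Lgals1 and Ccnd2 for Kcnn4 (0.82, against 0.85 and 0.82). Atp1b1 was most like Dapl1 (0.83), Cbr2 (0.83) and Pgf (0.82), and Itpr2 most like Gatad2b (0.75), Etl4 (0.74) and Mbnl2 (0.73).

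The library of fewest counts bore on which genes were nearest. Without it Ano3 (0.90) came first for Chrm3, before Ddx24 and Exoc4, Mtap (0.81) replaced Ddx24 for Kcnn4, Spen (0.74) and Akap13 (0.74) replaced Etl4 and Mbnl2 for Itpr2, and Mtus1 (0.83) and Tfcp2l1 (0.82) replaced Cbr2 and Pgf for Atp1b1. For Ano1 and Itpr3 all 3 genes changed. With all 48 libraries Ano1 was most like Rpe (0.91), Prdx3 (0.90) and Rsrp1 (0.90), and without that library most like Nck2 (0.85), Tnfrsf10b (0.85) and Mtpn (0.83). Itpr3 was most like Kctd2 (0.80), Wdr26 (0.80) and Tmem259 (0.77), and without that library the highest value was 0.62 (Dnpep). The 3 correlations among Chrm3, Slc12a2 and Kcnn4 were 0.82, 0.80 and 0.80 without it.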

How the data were processed

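The 9 genes, the pathway lists and the marker lists were chosen with earlier results of these data known. The deposited values are raw counts per gene, whole numbers that were not normalized, made by the authors from 3' RNA libraries (100 ng RNA input per the labels' protocols). GRCm39 and edgeR are named per the submitters' processing notes. No aligner, counter, strandedness or annotation release is given in the sources used here. Summary lines (8.445 to 12.485% of each library not assigned to a gene) stayed out of totals and tests. Of 47643 identifiers 47224 had a symbol.

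Counts were tested with edgeR 4.0.16 (quasi-likelihood, TMM scaling, filterByExpr, R 4.3.3, limma 3.58.1) with Benjamini-Hochberg adjustment over all genes tested and a threshold of 0.05. Doses were compared with the control in fits of the 12 libraries of a radiation type and day, and radiation types and days in fits of 24 libraries with an interaction, for 26 comparisons in all. The script was tested on simulated data with known changes. SE is the absolute log2 change over the root of its F statistic. Genes with too few counts for the filter are given as counts, with 95% exact intervals that cover counting error only. Likeness used log2(CPM + 1) centred within radiation type and day.

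Alternatives were library size alone, DESeq2 1.42.0, no low-count filter, the mouse number as a replicate block, only the groups compared, and each of the 48 libraries left out. Likeness without the library of fewest counts was added after seeing the data. Same-numbered samples of a radiation type come from the same animal per the labels. Their deviations from group means correlated on average by 0.073 and 0.076 (photons, days 2 and 6) and 0.072 and -0.02 (protons), against -0.038, -0.036, -0.035 and 0.01 for different numbers, over 11621 genes. No 2 replicates of a group agreed within sampling noise (lowest chi-square per degree of freedom 2.608).

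Named pathway genes were, per list, up to 2 with the smallest p among those called at 15 Gy, for each radiation type and day. Both the members and the 3 genes most like each were named whatever their test gave. Photon and proton samples were irradiated on different days, so only changes from the matching controls were compared. Some pathway results are not reported here.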

Additional observations from a re-analysis of the deposited data

Results flagged for a closer look

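In the pathway genes other than the members, 10 differed between the proton and the photon effect at day 6, 15 Gy by the edgeR interaction test (adjusted p under 0.05), values being the proton change minus the photon change on the log2 scale. Higher with protons were Wfdc18 by 1.94 ± 0.40 (SE; adjusted p = 0.0116), Itpr1 by 1.09 ± 0.27 (0.0228), Plcb4 by 1.07 ± 0.29 (0.0336) and Wnk1 by 1.04 ± 0.30 (0.0497). Lower with protons were Fxyd2 by -2.42 ± 0.61 (0.0264), Vipr1 by -1.60 ± 0.39 (0.0227), Car12 by -1.48 ± 0.43 (0.0495), Orai2 by -1.01 ± 0.24 (0.0203), Gna11 by -0.75 ± 0.20 (0.0332) and Atp2a2 by -0.64 ± 0.17 (0.0308). For Wfdc18 the photon libraries carry the difference: it went from 652, 408 and 393 CPM to 72.6, 106 and 165 CPM with photons and from 72.3, 51.9 and 72.4 CPM to 39.6, 70.4 and 66.2 CPM with protons.

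Another 6 differences were between the 15 Gy effects of day 6 and day 2, when 0.104% (photons) and 2.64% (protons) of all genes passed. Their count ran from 2 to 11 with 1 library left out. With photons Wfdc18 was lower at day 6 by -2.55 ± 0.43 (adjusted p = 0.00967). With protons Ltf was lower by -1.82 ± 0.45 (0.0299), Slpi by -1.51 ± 0.41 (0.046), Car12 by -1.46 ± 0.35 (0.0235) and Fxyd3 by -0.80 ± 0.17 (0.0119), and Lcn2 was higher by 1.42 ± 0.33 (0.0211). Ltf rose on both days and by less at day 6. Groups of 3 libraries were not tested for single outlying samples.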

How the results depend on the processing

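Counts of calls below are sums over the comparisons named. Calls over all genes moved with the setting too. For photons at day 2, 15 Gy, 547 genes passed in the main fit. With no low-count filter 431 were higher and 633 lower, in DESeq2 382 and 385, and with only the groups compared 117 and 87. A shift in the counts below is therefore not shown to be particular to these genes. Over the 3 doses of photons at day 2, 3 calls of members became 6 in DESeq2, 9 with no low-count filter and 1 when only the groups compared were fitted, and 1 to 4 with a library left out; 15 calls of pathway genes became 27 with no filter, 3 with only the groups compared and 5 to 23 with a library left out. For photons at day 6, 0 calls of members became 6 with no filter, 1 with the replicate block, 2 with only the groups compared and 0 to 3 with a library left out, and 9 of pathway genes became 32, 15 (only the groups compared) and 3 to 24. For protons at day 2, 5 of members ran from 2 to 8 and 19 of pathway genes from 11 to 29 with a library left out, and the latter were 32 with no filter. For protons at day 6, 9 of members ran from 8 to 10 and 40 of pathway genes from 26 to 46. Between 15 and 4 Gy, 1 call of a member became 2 in DESeq2, 4 with no filter, 0 with only the groups compared and 0 to 3 with a library left out, and 8 of pathway genes became 17 with no filter and 4 to 10.

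For the proton minus photon effect, 0 calls of members became 2 with library size alone, 2 with no filter, 1 with the replicate block and 0 to 2 with a library left out, and 10 of pathway genes became 16 with no filter and 0 to 13. For the change of effect between days, 6 calls of pathway genes became 10 with library size alone, 10 in DESeq2, 11 with no filter and 2 to 11. Control days gave 6 to 10 calls of members and 39 to 51 of pathway genes. The replicate block changed no call of a member other than those given beside the results. Single values changed sign for Ano1 (photons, day 6, 4 Gy: -0.072 in DESeq2, -0.023 with only the groups compared) and, with library size alone, for Itpr2 (protons, day 2, 4 Gy: 0.028; photon controls: 0.053) and Itpr3 (protons, day 2, 4 Gy: 0.016). The cause was not tested. No value that passed changed sign with a library left out; of those that did not pass, log2 changes crossed 0 as follows. Slc12a2 ran from -0.021 to 0.28 (photons, day 2, 4 Gy). Kcnn4 ran from -0.10 to 0.38 (photons, day 2, 4 Gy). Itpr2 ran from -0.26 to 0.074 (photons, day 2, 4 Gy), -0.11 to 0.049 (protons, day 2, 4 Gy), -0.073 to 0.13 (protons, day 2, 7 Gy), -0.15 to 0.19 (photon controls, day 6 against day 2) and -0.039 to 0.26 (protons, day 6, 15 Gy against 4 Gy). Ano1 ran from -0.15 to 0.26 (photons, day 6, 4 Gy), -0.00020 to 0.34 (photons, day 6, 7 Gy), -0.0028 to 0.29 (protons, day 2, 7 Gy), -0.37 to 0.35 (photon controls, day 6 against day 2), -0.038 to 0.13 (protons, day 6, 15 Gy against 4 Gy) and -0.083 to 0.29 (protons minus photons, day 6, 15 Gy). Itpr3 ran from -0.11 to 0.31 (photons, day 6, 4 Gy), -0.11 to 0.061 (photons, day 6, 15 Gy), -0.091 to 0.0035 (protons, day 2, 4 Gy), -0.061 to 0.084 (protons, day 2, 7 Gy), -0.11 to 0.14 (protons, day 6, 7 Gy) and -0.039 to 0.21 (protons, day 6, 15 Gy). Atp1b1 ran from -0.21 to 0.061 (photons, day 6, 4 Gy). Cftr ran from -0.13 to 0.50 (photons, day 6, 7 Gy) and -0.40 to 0.23 (photons, day 6, 15 Gy).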
